A study of Caenorhabditis elegans with 2 samples.

Results

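The Sma/Mab pathway genes of Caenorhabditis elegans are described here as 9 named genes, dbl-1, crm-1, lon-2, sma-6, sma-2, sma-3, sma-4, sma-9 and lon-1, out of 19973 protein-coding nuclear genes. The rule lists them by name and sets no limit on a measured value, but they were chosen with earlier results of these data known. All peaks whose summit lay from 3000 bp upstream of the gene start to the gene end were taken for each, and all 9 symbols were found in the Ensembl release 115 annotation of WBcel235. The data are ChIP-seq peak lists from whole fourth-stage (L4) larvae aged 47 hours, synchronised by starving hatched L1 larvae, in 1 group of 2 biological replicates. The worms, of strain OP790, carry the integrated transgene wgIs790, in which daf-8 is fused to TY1, EGFP and 3xFLAG tags, with unc-119(+) in an unc-119 (tm4063) background; chromatin was recovered with an antibody against GFP. There is no untagged or untreated group among the samples. Values from whole worms average over all tissues, and the labels do not say how the replicate cultures were kept apart, so differences between replicates may be technical.

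The Sma/Mab pathway is the BMP-like branch of TGF-beta signalling in the worm. It is known for setting body length and for patterning the male tail, and it also acts in mesoderm development and in defence against microbes. The secreted ligand binds paired serine/threonine kinase receptors, which activate SMAD proteins that enter the nucleus together with a common SMAD partner and regulate genes. DAF-8, the tagged protein, is a receptor-regulated SMAD of the other worm TGF-beta branch, the DAF-7 pathway that controls dauer entry; both branches use the type II receptor DAF-4.

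None of the 9 genes had a peak that passed the authors' threshold. The count was 0 of 9 in the list that compared the true replicates, against a background of 1.33% of all protein-coding genes. The pooled list also gave 0 of 9 (background 1.58%), as did the list of replicate 1 by itself (background 0.371%) and that of replicate 2 by itself (background 0.456%). It stayed 0 of 9 with 1000 bp upstream (background 0.846%) or 5000 bp upstream (background 1.80%), and with any overlap of peak and window by at least 1 bp (background 1.46%). It was 0 of 9 as well with only the summits nearest to the gene's own start (background 0.716%), and with ranked peaks of the true-replicate list at an IDR of at most 0.001 (background 0.285%) or 0.05 (background 4.24%). At an IDR of at most 0.05 the pooled ranked list gave 1 of 9, sma-9 with a lowest IDR of 0.0314 (background 5.04%), while replicate 1 by itself gave 0 of 9 (background 0.996%) and so did replicate 2 by itself (background 1.19%). A count of 0 of 9 allows a share of up to 33.3%, so a rate like the background could not be told from none with 9 genes. The authors' threshold works on the irreproducible discovery rate (IDR), an estimate of the share of irreproducible peaks. Kept peaks had an IDR of at most 0.01, but not every such peak was kept. In the true-replicate list 262 ranked peaks had such an IDR and 240 peaks were kept. The authors' ranked list holds 101032 peaks in all, of which 82 had their summit at a member. None of the 82 passed the threshold, and these weaker peaks are what the rest of the text describes. Each has a signal, the authors' value for its strength, which in the true-replicate and pooled lists is taken to be that in the pooled reads of both replicates.

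The sequences of 6 summits that the results turn on are shown first, each with 50 bp on either side of the summit, read along the strand of the gene from the WBcel235 genome of RefSeq. Capitals mark GTCT, the short core recognised by SMAD proteins, and AGAC, its reverse complement. Those of dbl-1 and crm-1 show the strongest peaks at the ligand gene and at a secreted modulator. That of sma-2 lies within another gene, and that of sma-4 in a repeat. For sma-9 the strongest peak in the window and a stronger one just outside it are given.
dbl-1, 359 bp after the start, chrV:6758444-6758544, plus strand: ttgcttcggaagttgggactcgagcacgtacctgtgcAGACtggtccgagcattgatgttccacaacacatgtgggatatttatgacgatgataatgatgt
crm-1, 6830 bp after the start, chrV:10325232-10325332, minus strand: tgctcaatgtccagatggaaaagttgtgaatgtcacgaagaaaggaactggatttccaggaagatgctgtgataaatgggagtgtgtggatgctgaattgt
sma-2, 4708 bp after the start, chrIII:8754338-8754438, plus strand: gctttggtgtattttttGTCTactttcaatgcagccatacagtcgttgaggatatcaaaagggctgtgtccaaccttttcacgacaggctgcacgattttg
sma-4, 1444 bp before the start, chrIII:5814738-5814838, plus strand: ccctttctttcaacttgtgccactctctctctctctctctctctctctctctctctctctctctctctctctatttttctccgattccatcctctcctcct
sma-9, 1956 bp before the start, chrX:10767276-10767376, plus strand: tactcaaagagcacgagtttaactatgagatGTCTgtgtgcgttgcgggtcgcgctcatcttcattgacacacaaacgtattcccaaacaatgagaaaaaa
sma-9, 3091 bp before the start and outside the window, chrX:10766141-10766241, plus strand: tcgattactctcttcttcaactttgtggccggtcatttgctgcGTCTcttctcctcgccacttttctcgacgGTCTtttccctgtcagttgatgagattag

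Measured by the strongest ranked peak in the window, the 9 genes stood in the middle of genes of similar length. Longer genes have more chances to hold a strong peak, so each member was ranked among the protein-coding genes from 20% shorter to 25% longer than itself. The median percentile of the members was 48.3, where 50 is the median of any gene among its own kind. Of the 9 members, 4 were above 50 and 2 were above 75. The strongest signals ran from 26.1 at lon-1 to 47.7 at sma-9, with a median of 31.0, against a median of 30.0 over all protein-coding genes.

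**Figure D1:**
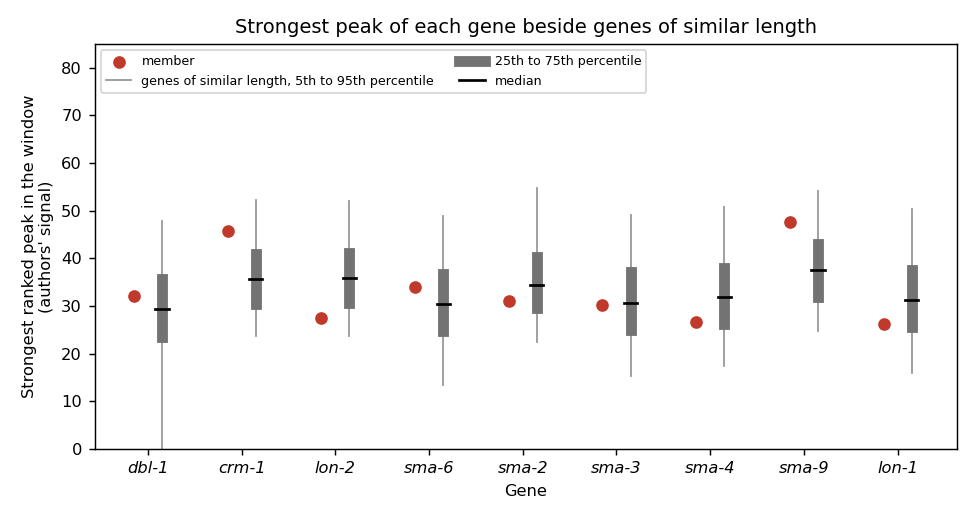
The signal of the strongest ranked peak (vertical axis, the authors' value) is plotted for each of the 9 genes (horizontal axis) as a red point, left of the genes of similar length, whose thick bar spans the 25th to 75th percentile, thin line the 5th to 95th percentile and black line the median. The points of crm-1 (45.7) and sma-9 (47.7) lie above the thick bar, that of lon-2 (27.5) lies below it, and the other 6 lie within it.

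The extracellular members, a ligand and its modulators, held both a high and a low gene. dbl-1 (WBGene00000936, V 6758135 to 6760418, plus strand) encodes the BMP-like ligand. Its strongest peak, in a coding exon 359 bp after the start, had a signal of 32.1 at an IDR of 0.304, with 17.1 in compared list 1 and 16.7 in compared list 2 of the true-replicate list. The gene stood at percentile 62.2 among 4228 genes of similar length, whose median was 29.3. All 4 of its ranked peaks were above 17.01, the median signal of the whole ranked list, and the lowest had 18.3.

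crm-1 (WBGene00007103, V 10322283 to 10332112, minus strand) encodes a secreted protein with cysteine-rich repeats that promotes DBL-1 signalling. Among its 12 ranked peaks 1 stood out, in a coding exon 6830 bp after the start, with a signal of 45.7 at an IDR of 0.0760; the next had 28.6. Its signals in the compared lists were 20.3 and 25.6, or 23.0 ± 3.74 (SD, n = 2). That put crm-1 at percentile 88.4 among 914 genes of similar length, whose median was 35.6. The summit was 1161 bp from the start of a transcript of crm-1, the nearest protein-coding transcript start, while the nearest gene start was that of B0024.13, at 4571 bp.

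lon-2 (WBGene00003056, X 4738964 to 4749083, minus strand) encodes a glypican, a cell-surface proteoglycan that restrains the pathway. It had 16 ranked peaks, more than all members except sma-9, yet the strongest, in an intron 5754 bp after the start, reached 27.5, against a median of 35.8 in 873 genes of similar length (percentile 12.03). That peak was uneven, with 4.24 in compared list 1 and 22.3 in compared list 2 (13.3 ± 12.8, SD, n = 2), and its IDR was 0.827. A stronger peak lay outside the window, 3810 bp upstream of the start, with a signal of 49.7 at an IDR of 0.0676; its nearest gene start was that of C39E6.2, at 2225 bp. With a window of 5000 bp upstream, lon-2 stood at percentile 91.1 in place of 12.03.

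The receptor gene sma-6 (WBGene00004860, II 6324484 to 6327355, plus strand) encodes the type I receptor of the pathway. In the true-replicate list it had 2 ranked peaks and no ranked summit in the gene itself or in the nearer part of the upstream window. They had signals of 34.0 and 31.7, at 2809 and 2207 bp upstream, and both lay inside the neighbouring gene C32D5.4. The first was 516 bp from the start of efr-3 and the second 802 bp from that of C32D5.4. sma-6 was at percentile 65.2 among 3649 genes of similar length with these peaks and at 3.08 with a window of 1000 bp upstream, which leaves them out.

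By strongest signal, the 3 SMAD genes of the pathway were all below the middle in the true-replicate list. In replicate 2 alone sma-2 and sma-4 were above it, at percentiles 64.8 and 68.0. In the true-replicate list sma-2 was at 81.2 by lowest IDR, and sma-3 was at 51.6 by signal among the 500 genes nearest in length. sma-2 and sma-3 encode the receptor-regulated SMADs, and sma-4 the common partner that binds them. sma-2 (WBGene00004856, III 8749680 to 8757089, plus strand) had 31.0 as its strongest signal, against a median of 34.4 in 1271 genes of similar length (percentile 32.3). Its lists gave 18.04 and 22.8 (20.4 ± 3.39, SD, n = 2), an even pair, with an IDR of 0.155. The summit was in an intron of sma-2 and in a coding exon of tomm-70, a gene nested on the opposite strand whose start was 362 bp away.

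sma-3 (WBGene00004857, III 6860974 to 6863968, minus strand) had 30.2, against a median of 30.6 in 3494 genes of similar length (percentile 48.3). That peak was 2560 bp upstream, in a coding exon of the neighbouring gene cra-1. The strongest peak within sma-3 itself had 21.4, in an intron 2396 bp after the start. The other 4 ranked peaks of sma-3 had signals of at most 11.8.

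sma-4 (WBGene00004858, III 5816232 to 5820204, plus strand) had 26.6, against a median of 31.8 in 2713 genes of similar length (percentile 26.3). Its strongest peak was 1444 bp upstream and 257 bp from the start of R12B2.7. The sequence of that summit, shown above, holds an unbroken run of alternating C and T of 50 bp. Such a run of at least 20 bp, read on either strand, was found around 0.0287% of all ranked summits and around 1 of the 82 at members, this one. How such repeats affect the placing of reads was not tested. The second peak of sma-4, in an intron 1592 bp after the start, had 24.8, with 7.71 and 21.5 in the compared lists. Of these 2 peaks, the first was ranked only in replicate 1 alone and the second only in replicate 2 alone.

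sma-9 stood highest of the 9 by strongest signal and was high in every list. The gene (WBGene00004862, X 10769282 to 10782973, plus strand) encodes a zinc finger protein of the Schnurri family that works with the SMADs in the nucleus. It had 22 ranked peaks, of which 14 were above the median signal of the list. The strongest, 1956 bp upstream, had a signal of 47.7, above that of 24 of the 240 thresholded peaks. The median of 536 genes of similar length was 37.6 (percentile 87.5 for sma-9). The peak was uneven, with 11.8 in compared list 1 and 34.6 in compared list 2 (23.2 ± 16.2, SD, n = 2), and its IDR was 0.355. The second, in a coding exon 5740 bp after the start, had 45.7 with a more even 29.4 and 21.1 (25.3 ± 5.88, SD, n = 2) and the lowest IDR of any member peak in this list, 0.0514.

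A further peak near sma-9 fell just outside both limits. It is named after its values were seen. Its summit was 3091 bp upstream of the sma-9 start, 91 bp beyond the window, at X 10766029 to 10766352, in no annotated gene, and sma-9 had the nearest gene start. The signal was 50.8, with 26.9 and 34.2 in the compared lists (30.5 ± 5.17, SD, n = 2), and the IDR of 0.0110 missed the threshold of 0.01. By IDR it was peak 280 of the ranked list, of which 262 had an IDR of at most 0.01. The pooled list gave it an IDR of 0.0336, the list of replicate 1 by itself 0.410 and that of replicate 2 by itself 0.233. Its sequence, the last shown above, holds GTCT at 2 places.

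lon-1 (WBGene00003055, III 5474476 to 5478005, plus strand), a gene that the pathway is known to repress, encodes a secreted protein of the CRISP family that limits body length. It had the lowest strongest signal of the 9, 26.1, against a median of 31.3 in 3054 genes of similar length (percentile 27.2). The summit was in the 3' UTR, 3407 bp after the gene start and 428 bp from the start of R02F2.10. The nearest ranked peak to the lon-1 start, 191 bp upstream, had 14.3, with 7.59 and 8.17 in the compared lists.

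**Figure D2:**
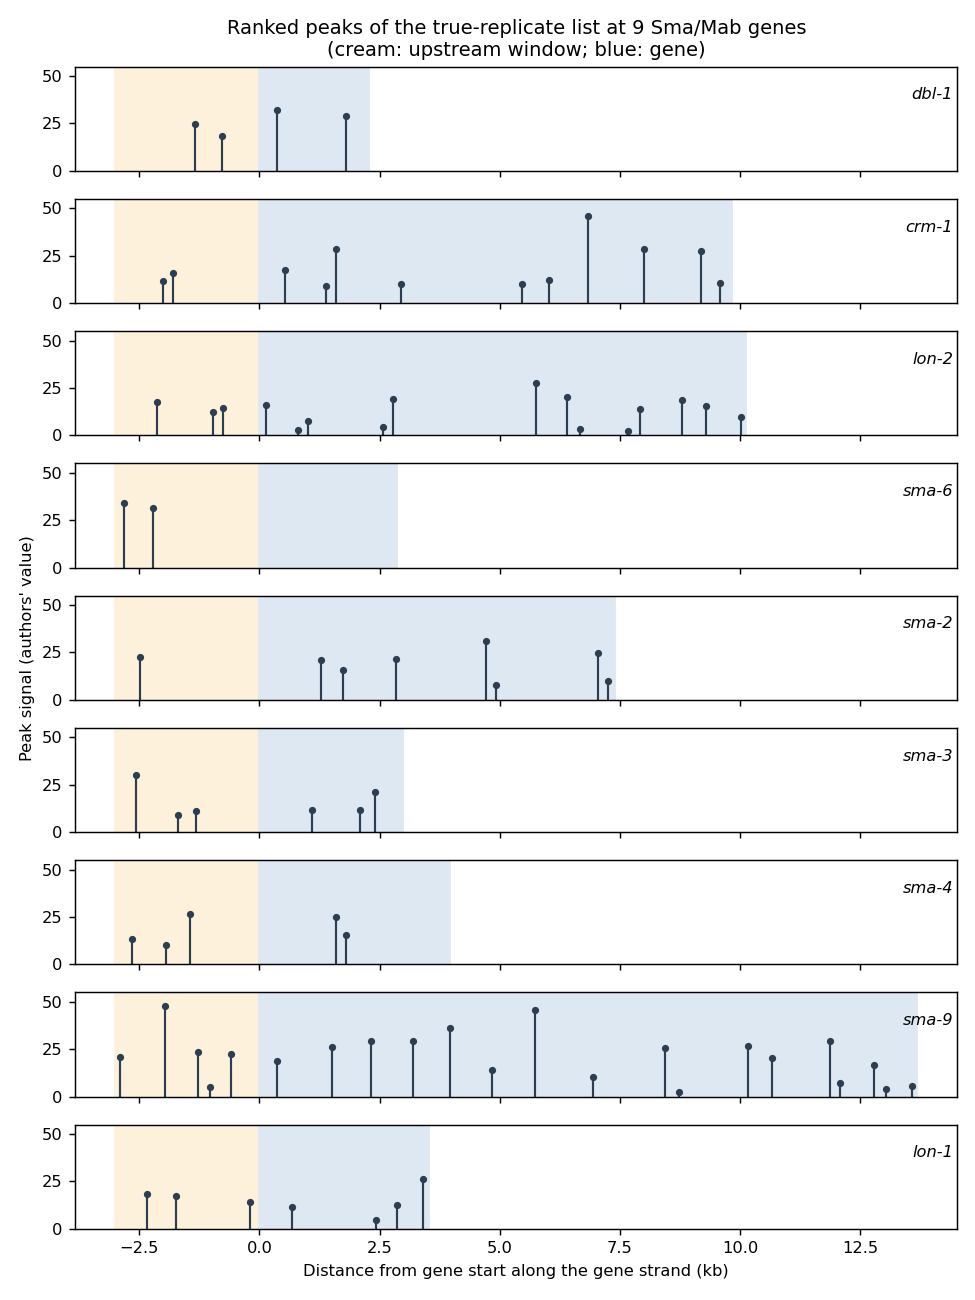
Each panel shows 1 gene, with the distance from the gene start along its strand in kb (horizontal axis) and the signal of each ranked peak of the true-replicate list (vertical axis, the authors' value) as a line with a point. The 2 peaks of sma-6 stand far upstream, and the 12 of crm-1 hold 1 that is higher than the rest (45.7).

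The lists of single replicates gave each gene a different place. In replicate 1 alone the strongest signals ran from 12.5 to 29.4 and the median percentile was 37.98; in replicate 2 alone they ran from 12.3 to 34.6 and it was 56.7. sma-9 was at percentile 92.7 in replicate 1 and 96.3 in replicate 2, a mean of 94.5 ± 2.51 (SD, n = 2) and the smallest difference of the 9. These came from different peaks, 29.4 in a coding exon 5740 bp after the start and 34.6 at 1956 bp upstream. The upstream peak was not ranked in replicate 1 alone. crm-1 was at 52.1 in replicate 1 and 79.8 in replicate 2. sma-4 was at 30.7 in replicate 1 and 68.0 in replicate 2, the largest difference, lon-2 at 19.6 and 56.7, and sma-2 at 41.6 and 64.8. At sma-4, lon-2, sma-6 and lon-1 too, the 2 replicates had their strongest signal at different peaks. At sma-6 the 2 peaks were nearly equal in replicate 2 alone, with 18.14 and 18.04.

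Only 2 genes, crm-1 and sma-9, were above 50 in both replicates, and 2, sma-3 and lon-1, were below 50 in both. The replicates thus put 4 of the 9 on the same side of the middle, and the median difference between them was 23.9 percentile points. In the pooled list the median percentile was 48.1. That list shares its signal column with the true-replicate list, so the strongest signals are equal there and it gives no second measurement of them.

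**Figure D3:**
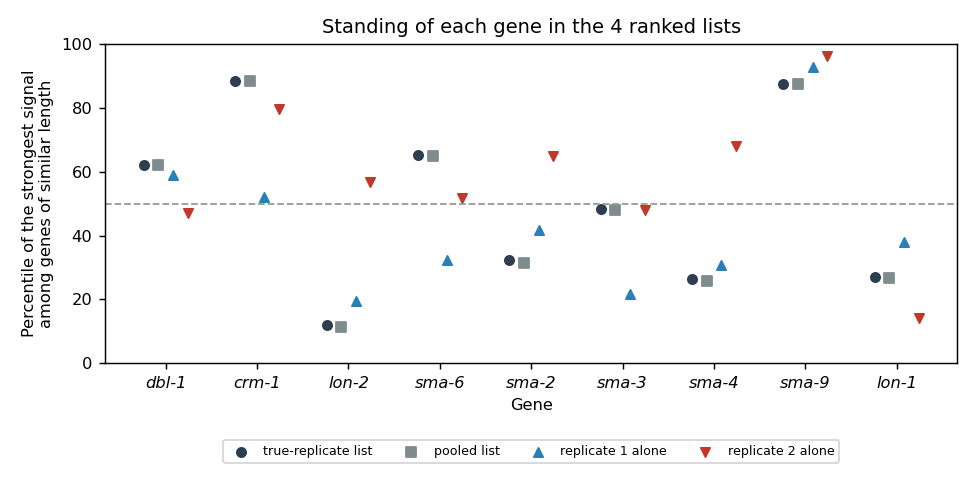
For each gene (horizontal axis) the percentile of its strongest signal among genes of similar length (vertical axis) is plotted in the true-replicate list, the pooled list and each replicate alone, with a dashed line at 50. sma-9 lies above 87 in all 4 lists, and lon-2, sma-2 and sma-4 lie below 50 in 3 lists and above it in replicate 2 alone.

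The members were also placed by their lowest IDR in the window, which is low where a peak ranks high in both compared lists. Their median percentile was then 61.6 in the true-replicate list, with 5 of 9 above 50 and 3 above 75, and 50.7 in the pooled list, with 5 above 50 and 2 above 75. In the true-replicate list those 3 were sma-9 (percentile 92.4), crm-1 (90.5) and sma-2 (81.2). In the pooled list sma-9 was at 92.5 and crm-1 at 89.2, but sma-2 at 35.8. In the true-replicate list sma-2 was at 32.3 by signal, and sma-4 was the lowest by IDR, at 15.7. By IDR in the single lists, sma-4 was at 43.3 in replicate 1 alone and at 95.2 in replicate 2 alone, there the highest of the 9. Of the 82 member peaks, 35 had the highest IDR the list holds, 0.827. The median by IDR was 43.3 for replicate 1 and 70.3 for replicate 2, farther apart than the medians by signal.

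A minority of the members' peaks were ranked in each replicate on its own. Of the 82 peaks, 27 were overlapped by at least 1 bp by a ranked peak of replicate 1 and by a ranked peak of replicate 2, or 32.9%, against 27.8% of all ranked peaks. A further 29 were overlapped in 1 replicate and 26 in neither. Of these 27, sma-9 held 11, sma-2 held 6 and crm-1 held 5, while sma-4 and lon-1 held none. Some of the peaks at sma-9, sma-2 and crm-1 overlap each other and were matched to the same replicate peaks. The 27 are thus not all separate peaks, and the share of all ranked peaks was counted in the same way. The strongest peak was found in both replicates for 6 of the 9 genes, all except sma-4, sma-9 and lon-1. At lon-2 the overlapping peak of replicate 1 alone had a signal of only 5.63 at an IDR of 0.920. The share over the strongest peaks of all genes was not counted, and the 27.8% covers weaker peaks too. Across the 82 peaks Spearman's rho between the compared lists was 0.171, and it was 0.165 across all 101032 ranked peaks. Peaks of a gene share its neighbourhood, overlapping ones can hold the same values, and all share 2 libraries, so these are descriptions.

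**Figure D4:**
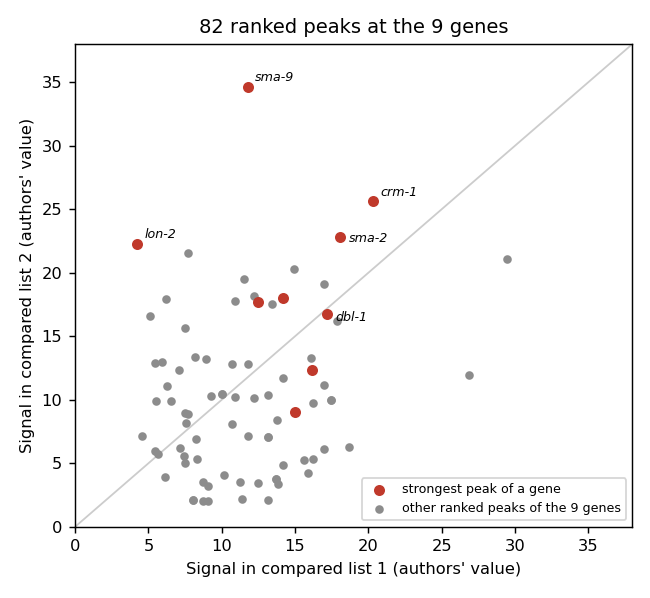
The signal of each of the 82 ranked peaks at the 9 genes in compared list 1 (horizontal axis) is plotted against that in compared list 2 (vertical axis), in the authors' values, with the strongest peak of each gene in red and a line of equal signal. The strongest peaks of sma-9 (11.8 and 34.6) and lon-2 (4.24 and 22.3) lie far above the line.

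Ranked peaks were not dense at the starts of these genes. The 9 windows, 83.7 kb in all, held 24 peaks upstream and 58 in the genes. That is 0.889 per kb upstream and 1.02 per kb within the genes, against 1.00 and 1.07 per kb over all protein-coding genes. The median density over members was 0.935 peaks per kb, against 1.08 as the median of their similar genes, and 2 of the 9, lon-2 and sma-9, were above the middle. This direction did not hold in every list: replicate 1 by itself gave 0.534, against 0.505 in similar genes, with 5 of 9 above the middle, and replicate 2 by itself gave 0.468, against 0.577, with 3 of 9 above it. Of the 82 peaks, 39.0% (32) were in introns, against 26.3% of the peaks in the windows of all protein-coding genes, and 26.8% (22) in coding exons, against 23.3%. A further 4.88% (4) were in 3' UTRs, against 2.42%, and 29.3% (24) upstream, against 46.6%. The members' lengths were not matched in these shares. The strongest peak was upstream in 4 genes, in an intron in 2, in a coding exon in 2 and in a 3' UTR in 1. By gene starts, it was nearest to the gene's own start in 4 of 9, against 59.3% of all protein-coding genes with a peak. For 5 members the strongest peak was thus nearer to another gene's start. At crm-1, which is among these 5, the nearest transcript start was its own.

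Within 1000 bp upstream to 250 bp downstream of the gene start, 4 of the 9 genes had a ranked peak, against 74.3% of all protein-coding genes. These 4 were dbl-1, lon-2, sma-9 and lon-1. The strongest of the 6 peaks there was at sma-9, 587 bp upstream, with a signal of 22.5 at an IDR of 0.555; its lists gave 10.7 and 12.8 (11.8 ± 1.45, SD, n = 2). The median over all genes that had such a peak was 21.6. The other 5 peaks were weaker, with 18.3 at dbl-1, 14.3 at lon-1 and 12.3 to 16.1 at lon-2. This window around the start was added with the data already seen. It used 1 start per gene, so other transcript starts were not counted. The strongest summit of sma-2, for example, was 504 bp from a transcript start of sma-2.

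The letters GTCT or AGAC stood within 50 bp of the strongest summit in 4 of 9 members, dbl-1, sma-6, sma-2 and sma-9. Over all 82 member peaks the share was 42.7%, against 39.9% of all ranked summits and 50.4% of the 240 thresholded ones. The palindrome GTCTAGAC was at none of the 82 and at 0.0633% of all ranked summits, and GGCGCC, a GC-rich SMAD site, at none and at 0.999%. In the promoters, from 250 bp before to 50 bp after the gene start, GTCT or AGAC was found in 9 of 9 members and in 77.0% of all protein-coding genes, most often in sma-2, with 7 places. Both strands were read, a GTCTAGAC counts as GTCT too, and a match says only that these letters are there. Member summits held 37.4% ± 8.60 G and C (SD over 82 peaks), against 38.7% ± 8.74 at all ranked summits and 48.7% ± 9.69 at thresholded ones.

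For most of these genes the nearest thresholded peak was farther away than the median of similar genes, but none stood at an extreme. The distance from the gene ran from 168 kb at lon-1 to 534 kb at dbl-1, with a median of 311 kb, against 179 kb over all protein-coding genes. For 8 of 9 members it was more than the median of similar genes, and lon-1 was the exception, at 168 against 171 kb. As percentiles among genes of similar length, the distances ran from 49.5 at lon-1 to 82.2 at dbl-1. The thresholded peak nearest to sma-9, 311 kb away, had a signal of 113 and W02H3.3 as its nearest gene start, and that nearest to sma-3, 325 kb away, was 272 bp from the start of the ribosomal protein gene rps-21. 4 of the 9 genes are on chromosome III, so their distances are not independent. No member peak was within 200 bp of a gene for a tRNA, snRNA, snoRNA or rRNA, and the closest was 16.7 kb away. The share of all ranked peaks that lie so near was not counted, so this cannot be set beside a background.

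Other genes of the pathway were also without a thresholded peak, with 0 of 19 in each of the 4 lists, where the background was 1.33% (true-replicate), 1.58% (pooled), 0.371% (replicate 1) and 0.456% (replicate 2). At such shares a list of 19 genes will often hold none. They include the receptor gene daf-4, which the DAF-7 pathway uses too, coreceptors and modulators such as sma-10, drag-1 and unc-40, processing and membrane factors, nuclear factors and cuticle collagens known as targets. Their median percentile by strongest signal was 71.7, with 14 of 19 above 50 and 9 above 75; replicate 1 by itself gave 67.2 and replicate 2 by itself 68.5. The 3 highest were the cuticle collagen genes rol-6, col-41 and lon-3, with signals of 46.0 (percentile 94.96), 43.4 (93.1) and 38.9 (86.2) in the true-replicate list. In replicate 1 alone they were at percentiles 77.9, 79.3 and 59.6, and in replicate 2 alone at 80.1, 65.1 and 85.4.

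The DAF-7 pathway, in which the tagged protein itself acts, had 1 of 7 genes with a thresholded peak in the true-replicate list (background 1.33%). The same was found in the pooled list (background 1.58%). In replicate 1 alone (background 0.371%) and in replicate 2 alone (background 0.456%) the count was 0 of 7. The gene with a thresholded peak was daf-5, and its peak, in the part of its window upstream of the start, had a signal of 65.8. daf-5 is 19089 bp long, against a median of 2027 bp over all protein-coding genes, and the background was not matched for length. The median percentile of those 7 genes was 57.4, against 48.3 for the 9 Sma/Mab genes in the same list. In replicate 1 alone it was 40.1 against 37.98 and in replicate 2 alone 53.4 against 56.7, and no difference between the lists was tested. daf-8 is among the 7 and is carried by the transgene too, so its copy number can differ from that of other genes.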

How the data were processed

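Per the labels, chromatin was sheared by sonication to 200 to 800 bp and precipitated with an antibody against GFP from 2 biological replicates. The files are peak lists on ce11, per the deposited file names, the same assembly as WBcel235; all peaks ended within its chromosomes. Per the texts deposited with the lists, ranked lists derive from the alignments and 1 shared file, and thresholded lists also from 1 annotation file. The signal of a peak is the authors' deposited value; its scaling for depth, the aligner and the peak caller were not given in the sources used here. The −log10 of the IDR is a column that the authors deposited in the ranked lists, and it was turned back to an IDR. The true-replicate pair was told from the pooled pair by file name and by which ranked list gives each kept peak an IDR of at most 0.01. The columns of the 2 compared lists have no replicate names, so they are called list 1 and list 2. At the strongest peaks of dbl-1, crm-1, sma-6, sma-2 and sma-3, list 1 held the signal of replicate 1 alone and list 2 that of replicate 2 alone. At those of lon-2, sma-9 and lon-1 only list 2 did so, and at that of sma-4 only list 1. Where the signals are equal, the compared lists are not a measurement separate from the single-replicate lists. Read counts are not in these lists, so depth is unknown. Nearly all peaks of the true-replicate ranked list, 101030 of 101032, are 324 bp wide, so their summits are their middles.

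Windows, percentiles (a tie counts as 0.5) and motif shares were computed with Python 3.11.15 and NumPy 2.4.6, Spearman's rho with SciPy 1.17.1 and figures with Matplotlib 3.10.9; the window and percentile step was tested on simulated peaks. No test between conditions was made, since there is 1 group, and the members are described beside all genes. A percentile is a place among genes of similar length and not a p-value. Named were all 9 members, and of the 19 other pathway genes those with a thresholded peak (none) and the 3 of highest percentile. The members and lists were chosen with earlier results of these data known. Protein sequences were not used here. Alternatives were other lists, windows, IDR thresholds, length matching, overlaps and motif windows.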

Additional observations from a re-analysis of the deposited data

How the results depend on the processing

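The count of members with a thresholded peak was 0 under the 9 alternatives chosen at the start: other lists, windows, IDR thresholds and ways to assign a peak. With an IDR of at most 0.05, chosen after seeing the data for the other lists, it was 1 in the pooled list (sma-9) and 0 with either replicate left out. The median percentile of the strongest signal was 48.3 and lay between 37.98 and 56.7 with 1 replicate left out. It was 32.4 when a gene kept only the summits nearest to its own gene start, without regard to other transcript starts. There crm-1 was at 32.4 in place of 88.4, sma-6 at 3.92 in place of 65.2 and sma-9 at 93.3. The median number of ranked peaks per kb was 0.935 in the true-replicate list, 1.00 in the pooled list and 1.06 with 5000 bp upstream; merging overlapping peaks gave 0.762, and it was 0.468 to 0.534 with 1 replicate left out, whose lists are shorter; without replicate 2 it was above the 0.505 of similar genes. GTCT was near the strongest summit in 7 of 9 members within 100 bp either side, where 62.7% of all ranked summits hold it. Of the members' own percentiles, that of lon-2 moved most with the window. No paired analysis was possible because there is 1 group. With no read counts, the depth behind each signal cannot be given.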
